A study of Mus musculus with 6 samples.

Results

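Complement is a cascade of plasma proteases and opsonins that tags surfaces for removal and releases inflammatory fragments. In the classical pathway, C1q binds the target and activates the proteases C1r and C1s, and C1s cuts C4 and C2. In the alternative pathway, factor B joins deposited C3 and amplifies it. Both pathways meet at C3, and C1 inhibitor, encoded by Serping1, blocks C1r and C1s. Tissue macrophages are a main source of C1q, while fibroblasts and chondrocytes can make C1r, C1s, C3 and factor B, and complement proteins are known from osteoarthritic joints.

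The transcripts described are 9 complement genes chosen by name: the C1q chains C1qa, C1qb and C1qc, the proteases C1ra and C1s1, the central components C3 and C4b, the alternative pathway protease Cfb, and the inhibitor Serping1. All 9 were found among 23867 gene symbols, and all 9 were among the 15028 genes that passed the filter on low counts. RNA of cells labelled mouse chondrocytes was sequenced in bulk, with 3 libraries labelled MFN2Col2a1-/- (called knockout here, with count columns CRE1, CRE2 and CRE3) and 3 libraries labelled MFN2wt (wild type, WT1, WT2 and WT3). The knockout label pairs Mfn2, the mitochondrial outer membrane protein mitofusin 2, with Col2a1, a cartilage collagen gene. The labels do not state the driver of the recombinase, the age or sex of the animals, the joint or culture the cells came from, any treatment, or whether each library is its own animal. The p-values therefore measure only the spread between these libraries.

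Column totals were 31481779 to 37814723 counts in knockout libraries and 39267487 to 40152687 in wild-type libraries. Mfn2 was lower in each knockout library, at 9.78 to 11.1 FPKM, against 18.4 to 18.7 FPKM in the wild type (log2 fold change -0.84, SE 0.046, adjusted p = 2.24e-10, edgeR quasi-likelihood test). Levels of single genes and lists are TMM-scaled FPKM throughout, that is, counts scaled for gene length and, with TMM factors, for library size, and values after ± are SDs over n = 3 libraries. Fold changes are knockout against wild type, and a gene was called at an adjusted p under 0.05. The comparison called 62.7% of the tested genes, 30.7% as higher and 32.1% as lower. Rises made up 48.9% of the calls with TMM factors and 26.8% with total counts alone, which moved the median log2 fold change by -0.21. Chondrocyte markers were set beside the label "chondrocytes", which fold changes between the groups cannot check. Of 10 chondrocyte markers 9 were lower and 1 was higher, with a median log2 fold change of -1.24, beside -0.02 over all tested genes. Their summed level was 676 to 708 FPKM in knockout libraries and 1658 to 1692 in wild-type libraries, below that of the fibroblast list given later. Among the most abundant, Comp (-0.38) and Col11a1 (-1.45) were lower, and Col2a1 stood at 97.5 to 107 FPKM in knockout libraries and 661 to 688 in wild-type libraries. The macrophage lysozyme gene Lyz2 was more abundant than Col2a1 in both groups, at 209 to 226 FPKM in knockout libraries and 1632 to 1679 in wild-type libraries.

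Among the 9 complement genes, the knockout had fewer C1q transcripts and more C3, Cfb, Serping1 and C1s1 transcripts. Of the 9, 4 were higher, beside 30.7% of all tested genes, and 3 were lower, beside 32.1%. C1ra and C4b were not called. Of the 4 rises, those of C3 and Cfb were at least 2-fold, a size that 7.73% of tested genes reached upward, while all 3 C1q falls were at least 2-fold, which 12.0% reached downward. In 7 of the 9 genes the groups of libraries did not overlap, beside 67.1% of all tested genes. The median log2 fold change of the 9 genes was 0.07, beside -0.02 over all tested genes.

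**Figure D1:**
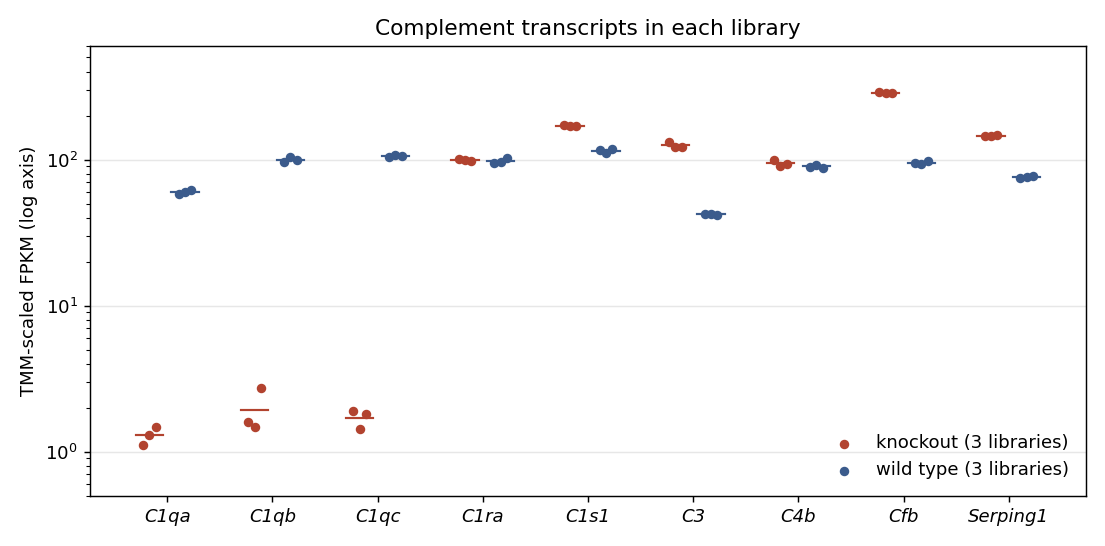
TMM-scaled FPKM of the 9 complement genes in each library, on a log axis, with knockout libraries left of wild-type libraries, points for libraries and lines for group means. The C1q chains lie between 1.11 and 2.71 in knockout libraries and between 58.3 and 107 in wild-type libraries, while C1ra and C4b overlap between the groups.

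The chains of C1q, the recognition part of the C1 complex, fell together. C1qa encodes the A chain and stood at 1.11, 1.31 and 1.48 FPKM in CRE1, CRE2 and CRE3, against 58.3, 60.3 and 61.8 in WT1, WT2 and WT3. Every knockout library was far below every wild-type library. Its mean was 1.30 ± 0.182 in knockout libraries and 60.1 ± 1.74 in wild-type libraries, a 46.2-fold fall (log2 fold change -5.53, SE 0.083, adjusted p = 3.93e-17, edgeR quasi-likelihood test). C1qb, the B chain, stood at 1.59, 1.48 and 2.71 FPKM in the knockout libraries, against 95.5, 104 and 99.96 in the wild type (-5.70, SE 0.109, adjusted p = 4.95e-16, edgeR). C1qc, the C chain, stood at 1.90, 1.44 and 1.81 FPKM in the knockout libraries, against 103, 107 and 107 in the wild type (-5.96, SE 0.073, adjusted p = 3.94e-18, edgeR). For both chains all knockout libraries lay below all wild-type libraries. Of all tested genes, 0.366% had a lower fold change than C1qa, and 0.253% a lower one than C1qc.

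What remained of C1q in the knockout rested on small counts. C1qa had 35, 50 and 48 counts in CRE1, CRE2 and CRE3, C1qb had 51, 58 and 90, and C1qc had 62, 57 and 61. C1qb was highest in CRE3, where the exact 95% Poisson interval of its count was 72.4 to 110.6, above that of CRE1 at 38.0 to 67.1 and overlapping that of CRE2 at 44.0 to 75.0. These intervals cover counting error only. They are of raw counts, and CRE2 had a column total of 37814723, against 32369711 in CRE3. The overlap of their intervals therefore does not compare C1qb levels between CRE2 and CRE3. In the wild type the chains kept close proportions per length, with C1qb at 1.62 to 1.72 times C1qa and C1qc at 1.72 to 1.77 times C1qa. In the knockout the same ratios ran from 1.14 to 1.84 for C1qb and from 1.10 to 1.71 for C1qc, so they were spread more widely between libraries. In the C1qb ratio the groups overlapped, and in the C1qc ratio each knockout library lay below the wild type. These ratios, and the other ratios per length given for these genes, are of deposited FPKM, were chosen after the values were seen and were not tested.

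The 3 C1q genes are neighbours on mouse chromosome 4, in the order C1qb, C1qc and C1qa. The promoters of 2 of these genes that fell together are shown for comparison, from RefSeq on build GRCm38.p6, minus strand, from 250 bases before to 50 bases after the annotated start and read 5′ to 3′. The C1qb window is chr4:136886151-136886450 and the C1qc window is chr4:136892865-136893164. Capitals mark matches, on either strand, to GAGGAA (the core bound by the macrophage factor PU.1), TTCNNNGAA (STAT), TTGCNNAA (C/EBP), GGG and CC with 5 free bases between them (NF-kB), and a pair of GAAA with 2 free bases between them (IRF).
C1qb: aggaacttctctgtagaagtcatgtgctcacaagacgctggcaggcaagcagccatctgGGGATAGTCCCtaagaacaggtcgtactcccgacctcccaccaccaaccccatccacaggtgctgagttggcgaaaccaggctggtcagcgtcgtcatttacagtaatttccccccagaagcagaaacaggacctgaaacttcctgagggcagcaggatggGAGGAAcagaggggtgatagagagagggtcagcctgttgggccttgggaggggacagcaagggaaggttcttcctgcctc
C1qc: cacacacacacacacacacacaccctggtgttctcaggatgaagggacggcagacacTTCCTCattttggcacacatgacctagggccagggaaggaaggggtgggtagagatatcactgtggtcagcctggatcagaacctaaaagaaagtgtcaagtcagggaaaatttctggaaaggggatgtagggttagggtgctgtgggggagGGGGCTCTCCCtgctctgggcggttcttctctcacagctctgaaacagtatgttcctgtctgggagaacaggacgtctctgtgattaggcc
Each window held 1 PU.1 match, starting 30 bases before the start in C1qb (position -30) and at position -193 in C1qc, beside 28.3% of 32817 mouse promoter windows of 300 bases. Each also held overlapping NF-kB matches, at positions -191 and -190 in C1qb and at -41 and -40 in C1qc, beside 50.8% of windows. Neither window matched the STAT, IRF or C/EBP letters. A match describes the letters and does not show binding.

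Macrophage markers moved with the C1q chains. All 21 tested markers of 23 on the list were lower, beside 32.1% of all tested genes. The markers had a median log2 fold change of -4.11, beside -0.02 over all tested genes, and a range of -6.32 to -1.39. Their summed level was 269 to 283 FPKM in knockout libraries and 2334 to 2368 in wild-type libraries. Timd4 had under 10 counts in every library. The most abundant markers were Lyz2 (-2.94), Cd68, a lysosomal protein (-3.22), and Tyrobp, a signalling adaptor of myeloid cells (-4.54). Among these markers Cx3cr1 (-6.32) and Aif1 (-6.14) alone had lower fold changes than C1qc, with at most 4 and 2 counts in any knockout library. Spi1, which encodes PU.1, stood at 0.43 ± 0.13 FPKM in knockout libraries and 14.2 ± 0.42 in wild-type libraries (-5.03, SE 0.138, adjusted p = 4.19e-14, edgeR). In bulk RNA, fewer cells of a type and less RNA per cell cannot be told apart, and the part of macrophage content in the C1q falls was not tested.

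**Figure D2:**
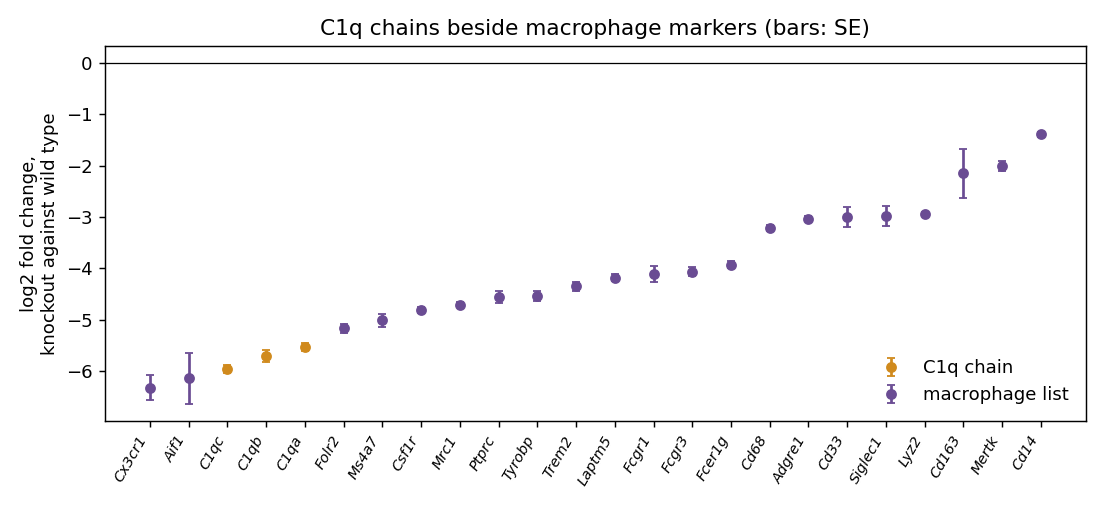
Log2 fold change, knockout against wild type, of the 3 C1q chains and the 21 tested macrophage markers, sorted from the lowest to the highest, with bars for the SE. The C1q chains lie between -5.96 and -5.53, beside a marker range of -6.32 to -1.39.

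C1qa was also set beside Csf1r, the receptor of the macrophage growth factor, within each library, a ratio that scaling between libraries does not alter. The log2 ratio of C1qa to Csf1r counts was -2.04, -1.62 and -1.69 in CRE1, CRE2 and CRE3, against -1.11, -1.08 and -0.97 in WT1, WT2 and WT3. All knockout libraries were lower, by 0.73 on average (knockout minus wild type -0.73, exact two-sided permutation p = 0.1). That is the smallest p that 3 libraries against 3 allow, so the test cannot pass 0.05. The 3 genes whose pattern over the 6 libraries was closest to that of C1qa were Pik3ap1, Inpp5d and Cyth4, with root mean square differences of 0.178, 0.180 and 0.185 in log2 CPM among 11300 candidates. Their log2 fold changes were -5.49, -5.37 and -5.35. A pattern over 6 libraries in 2 groups is mostly the difference between the groups.

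Transcripts of the proteases that C1q activates showed no such fall. C1ra, which encodes C1r, stood at 101, 99.3 and 97.2 FPKM in the knockout libraries, against 94.8, 96.3 and 102 in the wild type, and the groups overlapped. It was not called (log2 fold change 0.02, SE 0.034, 95% interval -0.07 to 0.12, adjusted p = 0.583, edgeR). Its direction depended on the scaling: with total counts alone it was called lower (-0.19, adjusted p = 1.68e-04, edgeR). C1s1, which encodes C1s, stood at 173, 170 and 171 FPKM in the knockout libraries, against 116, 112 and 118 in the wild type. All knockout libraries were higher, a 1.49-fold rise (0.57, SE 0.029, adjusted p = 7.91e-11, edgeR). C1s1 stood at 1.71, 1.71 and 1.75 times C1ra per length in the knockout libraries, against 1.22, 1.16 and 1.16 times in the wild type. These neighbours on mouse chromosome 6 have close copies, C1rb and C1s2, with at most 42 and 22 counts in any library. Adding those counts to C1ra and C1s1 changed neither call.

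The balance between the recognition chains and the proteases of C1 differed within every library. The mean of the C1q chains was 0.011, 0.010 and 0.015 times the mean of C1ra and C1s1 in CRE1, CRE2 and CRE3, in deposited FPKM, against 0.814, 0.868 and 0.814 times in WT1, WT2 and WT3. The log2 ratio of C1qa to C1s1 counts, free of scaling, averaged -8.57 ± 0.21 in knockout libraries and -2.46 ± 0.052 in wild-type libraries. The difference was -6.12 (exact two-sided permutation p = 0.1, the smallest that this design allows). C1q chains made up 0.462% to 0.650% of the summed level of the 9 genes in knockout libraries and 33.4% to 34.6% in wild-type libraries. The summed level itself was 916 to 945 FPKM in knockout libraries and 770.0 to 792 in wild-type libraries.

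Serping1, the inhibitor of C1r and C1s, rose. It stood at 144, 144 and 147 FPKM in the knockout libraries, against 75.1, 76.3 and 76.7 in the wild type, with no overlap. The rise was 1.91-fold (log2 fold change 0.93, SE 0.031, adjusted p = 4.40e-13, edgeR). Per length, Serping1 was 1.05, 1.07 and 1.09 times the mean of C1ra and C1s1 in the knockout libraries, and 0.713, 0.734 and 0.698 times in the wild type.

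**Figure D3:**
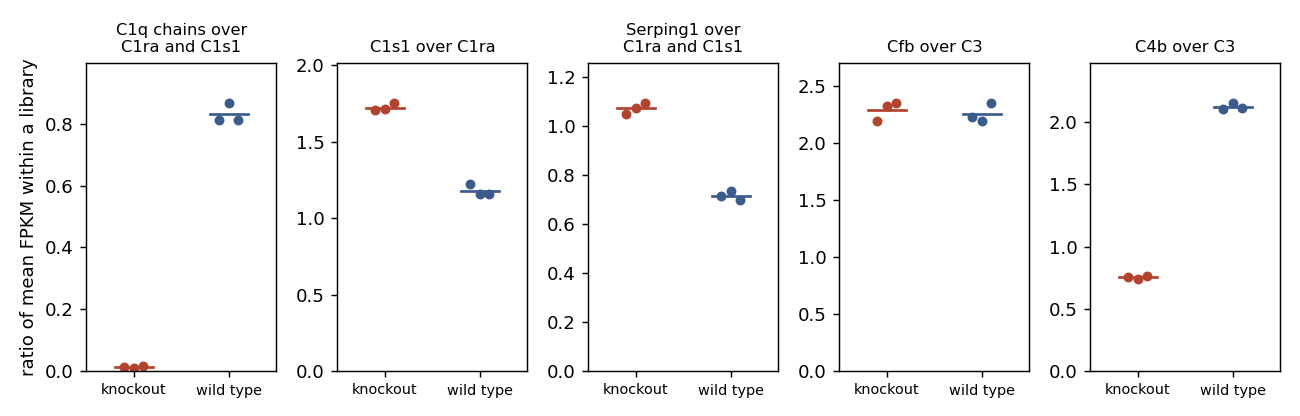
Ratios of deposited FPKM between complement genes within each library, knockout left of wild type, with points for libraries and lines for means; each axis starts at 0. The Cfb to C3 ratio overlaps between the groups, at 2.19 to 2.35 in both, and the other 4 ratios do not overlap.

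C3, the component at which the pathways meet, rose. It stood at 133, 122 and 122 FPKM in the knockout libraries, against 42.6, 42.6 and 41.5 in the wild type. All knockout libraries were higher, a 2.98-fold rise (log2 fold change 1.57, SE 0.035, adjusted p = 2.72e-15, edgeR). Cfb, which encodes factor B, stood at 291, 284 and 287 FPKM in the knockout libraries, against 94.7, 93.4 and 97.6 in the wild type. It rose 3.02-fold (1.59, SE 0.028, adjusted p = 2.24e-16, edgeR), again with no overlap. Of all tested genes, 4.03% had a higher fold change than C3 and 3.95% a higher one than Cfb. The ratio of Cfb to C3 per length was 2.19, 2.32 and 2.35 in the knockout libraries, and 2.22, 2.19 and 2.35 in the wild type. The groups overlapped in this ratio. The genes closest to C3 in pattern were Ptgfrn, Pdpn and Hk1, with root mean square differences of 0.028, 0.031 and 0.035 in log2 CPM over the 6 libraries, and their log2 fold changes were 1.55, 1.56 and 1.59.

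The C3 promoter is shown because C3 and Cfb moved together and C3 has a window in the RefSeq table. It lies at chr17:57228087-57228386 on build GRCm38.p6, minus strand, with capitals for the same motifs as above.
C3: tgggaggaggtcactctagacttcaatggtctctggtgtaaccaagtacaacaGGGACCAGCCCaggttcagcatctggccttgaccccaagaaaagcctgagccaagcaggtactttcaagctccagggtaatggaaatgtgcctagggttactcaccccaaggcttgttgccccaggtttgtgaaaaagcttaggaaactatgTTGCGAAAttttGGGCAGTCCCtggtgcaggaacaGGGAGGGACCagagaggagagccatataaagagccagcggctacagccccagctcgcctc
It held a C/EBP match starting at position -45 from the annotated start, beside 10.8% of all windows. NF-kB letters, read on both strands, matched at positions -197, -196, -33 and -10, with an overlap between the matches at -197 and -196. STAT, IRF and PU.1 letters did not match. Of the 9 genes, 5 had a window in that table. The C1ra window matched C/EBP, STAT and PU.1 letters, and the C1s1 windows matched NF-kB letters, with a C/EBP match in 1 of them. STAT letters were in 8.29% of all windows and IRF letters in 3.43%.

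C4b encodes C4, which C1s cuts, and was not called. It stood at 99.7, 90.7 and 93.1 FPKM in the knockout libraries, against 89.6, 91.8 and 87.8 in the wild type, and the groups overlapped (log2 fold change 0.07, SE 0.035, 95% interval -0.02 to 0.17, adjusted p = 0.0748, edgeR). That interval is not edgeR's own, and the p before adjustment was 0.0493 (edgeR). Leaving out CRE2 gave a called rise (0.12, adjusted p = 0.0231, edgeR), and total counts alone gave a called fall (-0.14, adjusted p = 1.79e-03, edgeR). C4b has a near-identical copy, C4a, which was not analysed here, so its count is uncertain. Within libraries, C4b was 0.752, 0.741 and 0.762 times C3 per length in the knockout, against 2.11, 2.16 and 2.11 times in the wild type.

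**Figure D4:**
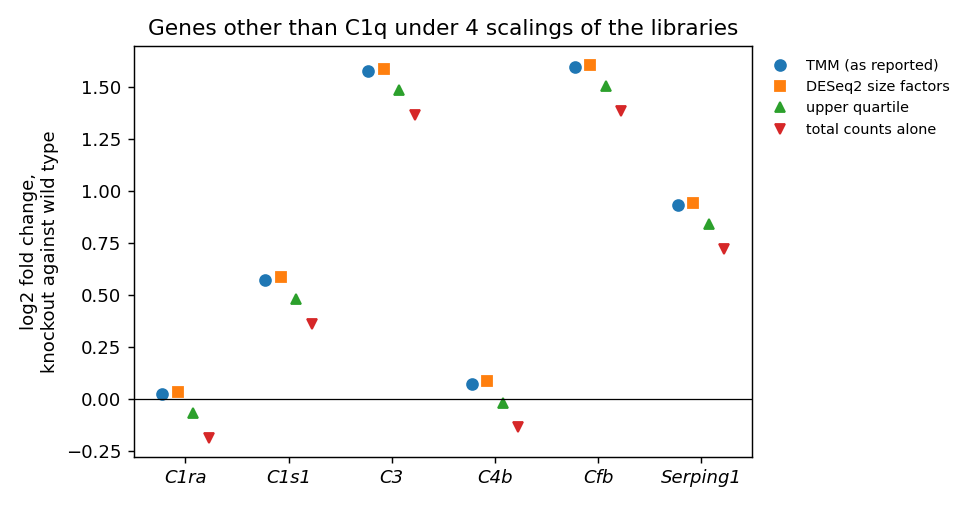
Log2 fold change, knockout against wild type, of the 6 complement genes other than the C1q chains, under 4 scalings of the libraries. C1ra runs from -0.19 to 0.04 and C4b from -0.14 to 0.09, across 0, while C1s1, C3, Cfb and Serping1 stay above 0.

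The order of levels changed between the groups. In the knockout, Cfb led at 287 ± 3.18 FPKM, followed by C1s1 at 171 ± 1.44, Serping1 at 145 ± 1.39 and C3 at 126 ± 5.93. C1ra (99.2 ± 1.97) and C4b (94.5 ± 4.64) came next and overlapped, and the C1q chains were last, in the order C1qb, C1qc and C1qa. C1qc overlapped both other chains, while every C1qa value lay below every C1qb value. In the wild type, C1s1 led at 115 ± 3.17 FPKM, then came C1qc at 106 ± 1.87, C1qb at 99.7 ± 4.09, C1ra at 97.7 ± 3.78 and Cfb at 95.2 ± 2.16. Neighbours among C1qc, C1qb, C1ra and Cfb overlapped. C4b at 89.8 ± 2.01, Serping1 at 76.0 ± 0.830, C1qa at 60.1 ± 1.74 and C3 at 42.2 ± 0.605 followed without overlap. Among the 15028 tested genes Cfb ranked 183 in knockout libraries and 540 in wild-type libraries by this level, and C1qa ranked 10475 in knockout libraries and 881 in wild-type libraries.

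The rest of the pathway was taken from a list of 47 other complement genes. Of these, 40 were in the table and 29 were tested, of which 5 were higher, 13 were lower and 11 were not called, beside 30.7% of all tested genes called higher and 32.1% called lower. The median log2 fold change of the 29 was -0.36, beside -0.02 over all tested genes. Among the proteases, Masp1, a protease of the lectin pathway, rose 4.41-fold to 82.9 ± 0.991 FPKM in the knockout, against 18.8 ± 0.350 in the wild type (2.14, SE 0.030, adjusted p = 1.60e-17, edgeR). C1rl, a relative of C1r, fell 1.57-fold (-0.65). C2, a neighbour of Cfb on mouse chromosome 17 and the substrate of C1s beside C4, was not called (-0.20, adjusted p = 0.254, edgeR), and it was named after its values were seen. Among the 2 tested lectin-pathway recognition genes, 1 was higher and 1 was not called.

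C4bp, a soluble cofactor that limits C4b, fell (log2 fold change -1.68), with 27 to 57 counts in the knockout libraries. Of the 6 tested membrane regulators 1 was higher, 2 were lower and 3 were not called. Over all tested genes, 30.7% were called higher and 32.1% lower. Cfp, or properdin, which stabilises the alternative convertase and is made by myeloid cells, fell 6.25-fold to 3.01 ± 0.161 FPKM in the knockout, against 18.9 ± 0.114 in the wild type (-2.64, SE 0.075, adjusted p = 5.80e-14, edgeR). The protease gene Cfd, also listed as an alternative pathway activator, was not called (0.01, adjusted p = 0.921, edgeR), and it was named after its values were seen.

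Receptors for complement fragments fell with the C1q chains. Of 8 tested receptors 7 were lower and 1 was higher, beside 32.1% and 30.7% of all tested genes. The median log2 fold change of the receptors was -4.47, beside -0.02 over all tested genes. C3ar1, the receptor of the C3a fragment, stood at 1.28, 1.28 and 1.46 FPKM in the knockout libraries, against 38.9, 37.5 and 38.5 in the wild type (-4.84, SE 0.056, adjusted p = 2.08e-18, edgeR). C5ar1, the receptor of C5a, stood at 0.82, 0.90 and 1.05 FPKM in the knockout libraries, against 28.3, 28.6 and 29.8 in the wild type (-4.97, SE 0.076, adjusted p = 4.56e-17, edgeR). Itgam (-2.88) and Itgb2 (-3.35), the chains of the C3 receptor of phagocytes, and Cd93 (-4.85) were lower as well. Many of these genes mark myeloid cells, and macrophage markers had a median of -4.11 over the same libraries. The gene of this receptor list that rose was C1qbp (0.32), whose product is known for binding C1q rather than a complement fragment. It was reported after its value was seen, and its rise was not checked under other scalings. Terminal components were scarce: C8g was the tested one among 6 that the counts cover, and it was lower (-1.41, at most 40 counts in any library).

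**Figure D5:**
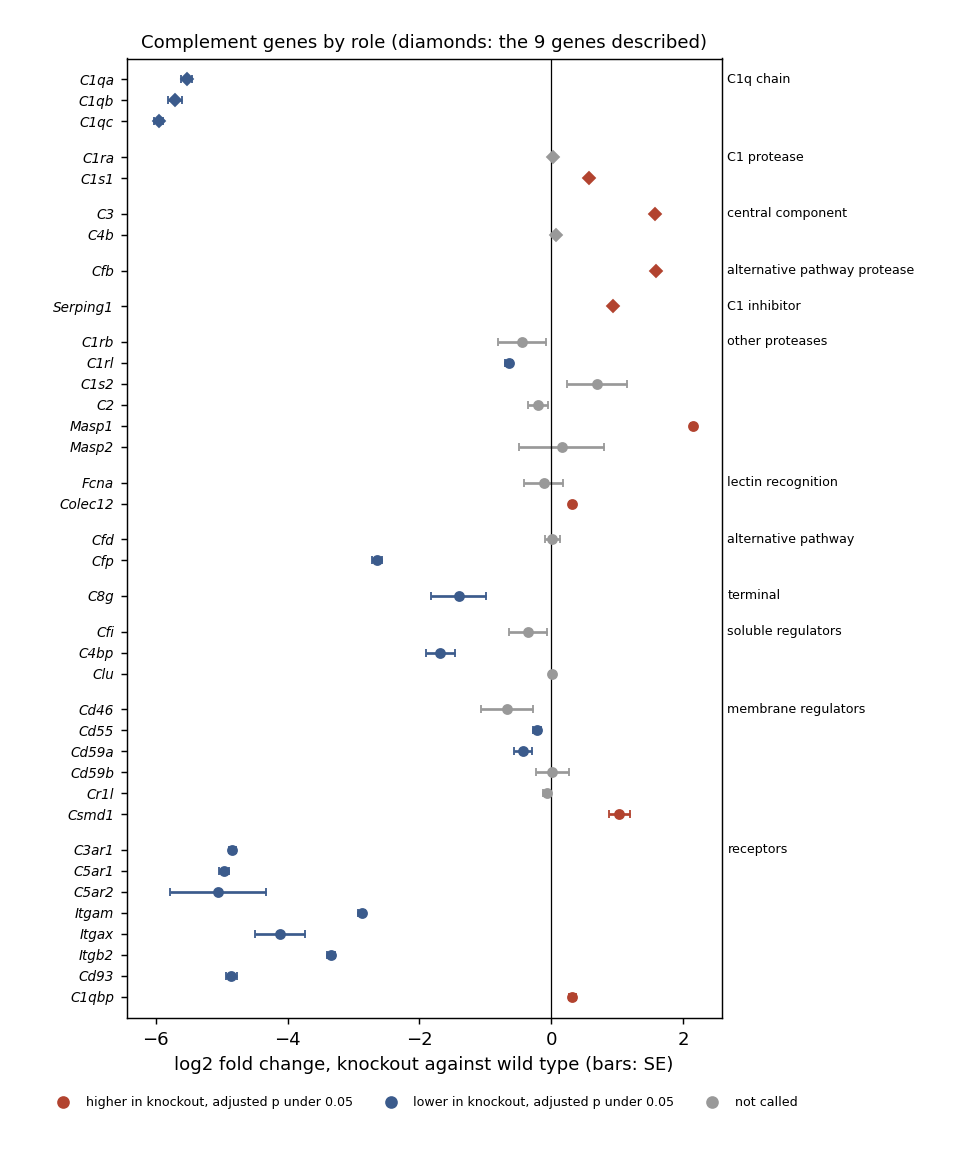
Log2 fold change, knockout against wild type, of the 9 complement genes (diamonds) and other tested complement genes (circles), grouped by role, with bars for the SE. The C1q chains and 7 of 8 receptors lie far to the left, and Masp1 (2.14), Cfb (1.59) and C3 (1.57) lie farthest to the right among those drawn.

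Cytokines and transcription factors known to act on complement genes were also measured. Of 14 tested, 9 were higher and 5 were lower, beside 30.7% and 32.1% of all tested genes, with a median log2 fold change of 0.48, beside -0.02 over all tested genes. Il6 (5.17) and Il1b (4.64) were higher, and so were the C/EBP factors Cebpd (2.23) and Cebpb (1.30). Il1b had at most 39 counts in any library. Tnf (-3.50) and Spi1 (-5.03) were lower. Whether any of these bears on the complement genes was not tested.

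Markers of other cell types moved less uniformly. Their counts of calls stand beside 30.7% of all tested genes called higher and 32.1% called lower. Fibroblast markers gave 4 rises, 3 falls and 2 genes not called among 9 tested, and their summed level was 7574 to 7644 FPKM in knockout libraries and 4982 to 4998 in wild-type libraries. Dcn (1.68), Col3a1 (0.72) and Col1a2 (-0.64) were the most abundant. Dcn made up most of the net rise in the sum, from 974 ± 22.2 FPKM in the wild type to 3121 ± 107 in the knockout. The sum therefore does not show a rise shared across the list. Neutrophil markers were low, at summed levels of 12.4 to 13.7 FPKM in knockout libraries and 1.16 to 2.37 in wild-type libraries, with 3 rises and 1 fall among 5 tested. The most abundant of them were S100a8 (3.50), Camp (4.25) and S100a9 (-0.68, not called). The granule genes Elane, Mpo and Ngp and the surface marker Ly6g had under 10 counts in every library. Endothelial markers gave 2 rises and 2 falls among 6, led by Plvap (1.62), Tek (-0.14, not called) and Vwf (-2.06), at summed levels of 5.17 to 5.46 FPKM in knockout libraries and 2.11 to 3.18 in wild-type libraries. Of the dendritic markers Zbtb46 alone was tested (-1.17), with Itgae below the filter and Flt3, Xcr1 and Clec9a under 10 counts in every library. The part of fibroblast content in the rises of C3, Cfb, Serping1 and C1s1 was not tested.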

How the data were processed

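Total RNA of mouse chondrocytes was isolated in TRIzol and used for library preparation (VAHTS Universal V6), per the labels' protocols. Build GRCm39 and the tools HTSeq, HISAT2 and fastp come from the submitters' processing notes. The annotation and strand setting are not stated in those sources. The authors deposited whole-number read counts per gene symbol and FPKM values. Dividing counts by column totals and by deposited FPKM returned 1 length per gene, which was used for the TMM-scaled levels. Wild-type columns matched sample titles, and the CRE columns show the group alone, without a tie to a single knockout sample.

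The 9 genes and all lists were chosen with earlier results of these data known. The test was the two-sided quasi-likelihood test of edgeR 4.0.16 on the counts, under R 4.3.3, with Benjamini-Hochberg adjustment over 15028 genes. The design held the group alone, with TMM factors and a minimum count of 10 in filterByExpr. The test was also run on simulated data with few changed genes, balanced up and down. That run could not check the scaling of data in which 62.7% of tested genes are called. The SE is the log2 fold change divided by the square root of F. Intervals of fold changes are the log2 fold change plus and minus the SE times a t quantile. Its degrees of freedom were the number of libraries less the number of groups. These are fewer than edgeR's test used, so the intervals are wider than that test implies. The lists were other complement genes, known inducers, and markers of macrophages, neutrophils, dendritic, endothelial and fibroblast cells and chondrocytes. Named were the 9 genes, called genes of the complement and inducer lists with at least a 1.5-fold change (for complement, also averaging 0.5 FPKM or more), the 3 most abundant markers per list and those under 10 counts everywhere, and the 3 genes closest in pattern to C1qa and to C3 (among genes averaging 1 FPKM or more, by log2 CPM with a prior count of 2, centred on the wild-type mean). Some genes that this rule picks are not reported here.

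Within groups, chi-square over degrees of freedom was 3.19 to 8.09 between libraries, beyond sampling noise. Each library counted as 1, but this spread does not show that each is its own animal. Alternatives were DESeq2 1.42.0, limma-voom (limma 3.58.1), other scalings and filters, limma on log2 FPKM, a block on the column number and each library left out in turn. The sum of C1ra and C1s1 with their close copies was added after seeing the data.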

Additional observations from a re-analysis of the deposited data

How the results depend on the processing

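The falls of the C1q chains and the rises of C1s1, C3, Cfb and Serping1 kept their direction and their call under all 19 other settings: C1qa ran from -5.74 to -4.90 in log2 fold change, C1qb from -6.01 to -5.30, C1qc from -6.16 to -5.47, C1s1 from 0.36 to 0.59, C3 from 1.34 to 1.61, Cfb from 1.38 to 1.62 and Serping1 from 0.71 to 0.95. C1ra and C4b turned lower with upper-quartile factors (-0.068 and -0.017, neither called), and were called lower with total counts alone (-0.19 and -0.14), on log2(FPKM + 1) with or without the filter (-0.18 and -0.13) and on log2(FPKM + 0.1) (-0.19 and -0.14). Under those 4 settings 5 complement genes were called lower. Total counts alone shift the median over all genes by -0.21 (log2), so changes of that size depend on the scaling. Of all calls 48.9% were rises with TMM factors, against 26.8% from total counts alone and 38% after upper-quartile scaling. Genes called higher numbered 2789 with total counts alone, 2354 on log2(FPKM + 1), 2345 on log2(FPKM + 0.1) and 2706 on unfiltered log2(FPKM + 1), and genes called lower numbered 7627 with total counts alone and 7328 on unfiltered log2(FPKM + 1), against 4607 and 4823 in edgeR's test with TMM factors. The 17 other complement and inducer genes that the naming rule picked kept direction and call in all 320 values. With each library left out in turn, the difference in the C1qa to C1s1 log2 ratio ran from -6.22 to -6.00 and that of C1qa to Csf1r from -0.81 to -0.60. The numbers at the end of the column names did not pair the libraries: deviations from the group means correlated at -0.086, 0.055 and -0.095 for libraries with the same number. A block on that number gave 9094 called genes, against 9430 without it, and the same 7 calls among the 9 complement genes. With 35 to 90 counts per library, counting error limits the precision of the C1q levels in the knockout. For C1qb the count intervals of CRE1 (38.0 to 67.1) and CRE3 (72.4 to 110.6) did not overlap. Those of C1qa and of C1qc overlapped between knockout libraries.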
